A study of Mus musculus with 60 samples.

Results

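Ttr, Kl, Aqp1, Folr1, Kcnj13, Otx2, Clic6, Slc4a5, F5 and Calml4 are genes of the choroid plexus, and they were followed through 60 RNA libraries of dissected mouse brain. They are 10 of the 20423 genes in the deposited table, matched by symbol, and all 10 had counts in every region. They were chosen by symbol with earlier results of these data in view, and the values behind that choice were the lower levels of choroid plexus markers in PON2-deficient cortex. The cortex genotype values below are therefore a description without a test.

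The libraries came from striatum, cerebellum and cerebral cortex of mice that were PON2-deficient (homozygous) or wild-type, littermates from crosses of heterozygotes on a C57BL/6J background. PON2, paraoxonase 2, is an intracellular antioxidant enzyme. Every region had 10 PON2-deficient and 10 wild-type libraries, 5 of each sex, which makes 12 groups. All mice were killed at 3 to 4 months of age after behavioural tests. Tissue was dissected fresh, frozen and ground to powder, and total RNA was sequenced in pairs of 150 nt. Libraries of a group carry only a number, with no word on whether each came from its own mouse, so that p-values measure the spread between these libraries.

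The choroid plexus is a folded epithelium that lies inside the brain ventricles, outside the tissue of cortex, striatum and cerebellum itself. It makes cerebrospinal fluid by moving salts, bicarbonate and water from the blood, and it secretes carrier proteins into that fluid. The plexus of the lateral ventricles borders the striatum and the hippocampus, and that of the fourth ventricle lies under the cerebellum. A dissected region can therefore hold a piece of it, of a size that the sources used here do not record. In bulk tissue, fewer cells of a type and less RNA per cell cannot be told apart.

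The secreted and surface proteins among the genes are Ttr, F5, Kl and Folr1. Ttr (chromosome 18, 20665280 to 20674321, plus strand, GRCm38) encodes transthyretin, the carrier of thyroid hormone and retinol in cerebrospinal fluid. F5 (chromosome 1, 164151838 to 164220277, plus strand) encodes coagulation factor V. Kl (chromosome 5, 150952607 to 150993817, plus strand) encodes Klotho, a co-receptor for the hormone FGF23. Folr1 (chromosome 7, 101858331 to 101870788, minus strand) encodes the folate receptor that brings folate across the epithelium.

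The transport proteins are Aqp1, Kcnj13, Slc4a5 and Clic6. Aqp1 (chromosome 6, 55336432 to 55348555, plus strand) encodes a water channel of the surface that faces the ventricle. Kcnj13 (chromosome 1, 87386363 to 87394729, minus strand) encodes the potassium channel Kir7.1. Slc4a5 (chromosome 6, 83219828 to 83304945, plus strand) encodes a sodium bicarbonate cotransporter, and Clic6 (chromosome 16, 92485736 to 92541243, plus strand) a member of the chloride intracellular channel family. Otx2 (chromosome 14, 48657677 to 48673819, minus strand) encodes a homeodomain transcription factor that the choroid plexus needs to form. Calml4 (chromosome 9, 62858080 to 62875921, plus strand) encodes a calmodulin-like protein.

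Kcnj13 shares 623 exon bases, or 49.1% of its exons, with Gigyf2 on the opposite strand. The level of Gigyf2 had a median of 63.5 CPM (counts per M counts of the library) in striatum, 85.1 in cerebellum and 65.7 in cortex, above Kcnj13 in each region, and whether the counting used strand is not given in the sources used here. Low Kcnj13 values are therefore uncertain. Otx2 shares 154 exon bases (3.65%) with the antisense gene Otx2os1 and 168 (3.98%) with Gm49154 on its own strand, and F5 shares 262 (3.53%) with Gm16548 on the opposite strand.

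The 250 bases before an annotated start are shown for 3 genes that differ in how their RNA was spread over the regions: Kl, which rose most per unit of Ttr, Kcnj13, whose exons overlap another gene, and Otx2, which every cerebellum library held. They are RefSeq windows of GRCm38.p6 on the strand of the gene, 5′ to 3′, and they contain no annotated exon bases.
Kl, chr5:150952357-150952606, plus strand: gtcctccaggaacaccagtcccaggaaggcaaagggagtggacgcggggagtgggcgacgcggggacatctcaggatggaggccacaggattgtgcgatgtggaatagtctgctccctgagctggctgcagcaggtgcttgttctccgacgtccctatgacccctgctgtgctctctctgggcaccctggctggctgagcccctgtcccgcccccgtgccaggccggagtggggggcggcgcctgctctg
Kcnj13, chr1:87394730-87394979, minus strand: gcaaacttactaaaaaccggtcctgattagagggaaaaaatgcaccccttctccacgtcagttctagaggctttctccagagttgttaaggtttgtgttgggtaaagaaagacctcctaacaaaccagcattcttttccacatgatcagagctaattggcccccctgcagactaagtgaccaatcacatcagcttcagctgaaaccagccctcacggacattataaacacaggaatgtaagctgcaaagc
Otx2, chr14:48667645-48667894, minus strand: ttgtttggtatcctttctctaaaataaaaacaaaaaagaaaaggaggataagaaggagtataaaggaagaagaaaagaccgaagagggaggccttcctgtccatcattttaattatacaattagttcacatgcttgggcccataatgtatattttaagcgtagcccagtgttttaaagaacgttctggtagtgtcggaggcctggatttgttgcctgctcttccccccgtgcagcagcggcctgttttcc
The bicoid-type homeodomain motif TAATCC, the kind that OTX2 binds, was searched on both strands of such windows. It was in 2054 of 32851 windows of all genes (6.25%), and in 1 of the 10 windows that 7 of these genes had, another window of Otx2. None of the 3 windows printed above contains it, which is why they carry no capitals.

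Library totals lay between 26.1 and 28.1 M counts, so that 1 CPM stood for 26.1 to 28.1 counts. Pon2 was lower in the PON2-deficient libraries of each region, by log2 changes of -3.74 in striatum, -5.82 in cerebellum and -4.01 in cortex. Summed region markers were highest in the region of the label, with the least contrast for cortex. Cortex identity genes summed to 1835 to 2423 CPM in cortex, 1064 to 1276 CPM in cerebellum and 248 to 1069 CPM in striatum. Cerebellar identity genes summed to 4272 to 4869 CPM in cerebellum and at most 329 CPM elsewhere, and striatal identity genes to at least 3667 CPM in striatum and at most 1246 CPM elsewhere. A few libraries stood apart. Wild-type male 2 of cortex held olfactory genes that the other cortex libraries almost lacked. PON2-deficient male 5 of striatum had a mean deposited precision weight of 1.96, against 14.1 or more in every other library. PON2-deficient female 5 and PON2-deficient male 4 of cerebellum had almost no Ttr. Some of the main values that include these libraries are also given without them.

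In the striatum Ttr ranged from 5.78 to 1650 CPM. PON2-deficient males had 10.7, 40.6, 13.3, 5.78 and 616 CPM and PON2-deficient females 12, 387, 10.2, 10.4 and 1650 CPM. Wild-type males had 35.4, 475, 9.95, 10.6 and 323 CPM and wild-type females 25.3, 11.6, 477, 1075 and 21.8 CPM. The values fell into a lower set of 13 libraries, none above 40.6 CPM, and an upper set of 7 libraries, none below 323 CPM. Of the upper set 3 were PON2-deficient and 4 wild-type, so that both genotypes spanned nearly the whole range.

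In the cerebellum Ttr was high in all but a pair of libraries. PON2-deficient males had 804, 568, 2370, 3.15 and 440 CPM and PON2-deficient females 927, 2117, 1236, 433 and 3.24 CPM. Wild-type males had 497, 1474, 1961, 1777 and 478 CPM and wild-type females 973, 1019, 888, 1835 and 1424 CPM. Both libraries near 3 CPM were PON2-deficient, 1 of each sex, and the 18 others began at 433 CPM. Of the other 8 PON2-deficient libraries only those at 433 and 440 CPM lay below the lowest wild-type library, at 478 CPM.

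In the cortex Ttr was spread without a wide gap. PON2-deficient males had 138, 446, 63.3, 68.5 and 15.4 CPM and PON2-deficient females 7.67, 15.1, 10.4, 107 and 6.88 CPM. Wild-type males had 301, 37.6, 31.9, 72.9 and 418 CPM and wild-type females 333, 8.19, 54.2, 11.9 and 402 CPM. Above the widest gap, between 138 and 301 CPM, lay 1 PON2-deficient and 4 wild-type libraries. The genotypes overlapped over almost the whole range.

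**Figure D1:**
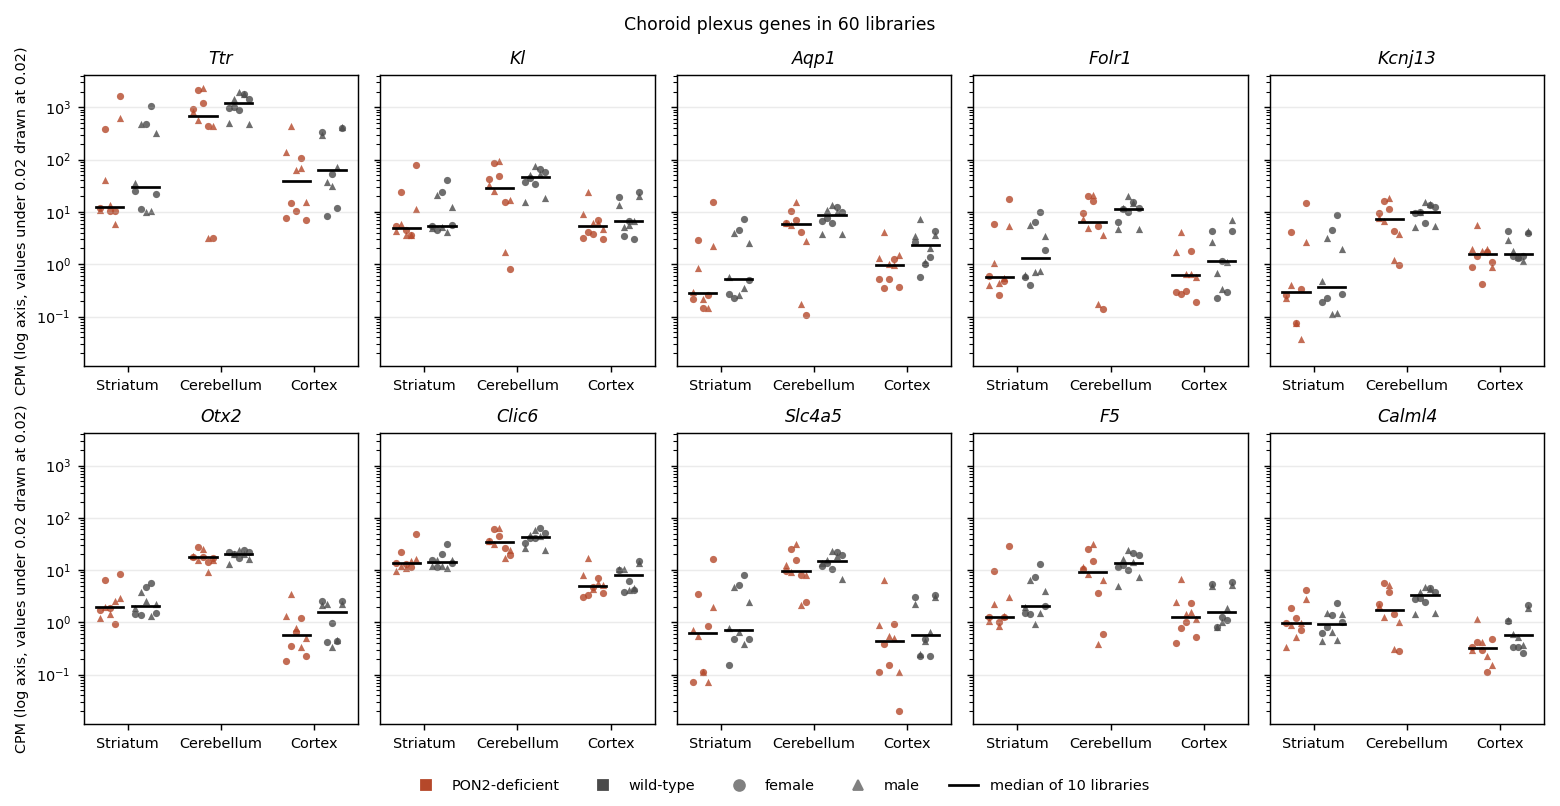
CPM on a log axis of the 10 choroid plexus genes in every library, by region and genotype (PON2-deficient left of wild-type; circles female, triangles male; bars medians of 10 libraries). Cerebellar Ttr lay between 433 and 2370 CPM except in 2 PON2-deficient libraries near 3 CPM, where Otx2 stayed at 17.4 and 9.29 CPM.

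Compared between genes per kilobase of exon, Ttr ranked first and Clic6 second in each region. The median level of Ttr was 19.9 CPM per kb in striatum, 801 in cerebellum and 49.5 in cortex. The median level of Clic6 was 3.55 CPM per kb in striatum, 9.87 in cerebellum and 1.39 in cortex. The lowest gene was Slc4a5 in striatum (0.117 CPM per kb) and in cortex (0.0852), and Calml4 in cerebellum (0.715).

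The other secreted and surface genes followed the same libraries. Kl ranged from 3.6 to 78.9 CPM in striatum with a median of 5.44, from 0.809 to 95.2 CPM in cerebellum with a median of 40.6, and from 3.09 to 24.5 CPM in cortex with a median of 6.08. Its highest striatal and cerebellar values were those of PON2-deficient female 5 and PON2-deficient male 3, the libraries with the most Ttr in these regions. Folr1 had medians of 0.714 CPM in striatum, 9.93 in cerebellum and 0.667 in cortex, with highest values of 17.4, 21.5 and 6.92 CPM in the same order. F5 had medians of 1.76, 11.5 and 1.33 CPM in striatum, cerebellum and cortex.

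Among the transport genes, Aqp1 had medians of 0.419 CPM in striatum, 6.5 in cerebellum and 1.3 in cortex. Kcnj13 had medians of 0.296, 9.59 and 1.6 CPM and Slc4a5 of 0.682, 13.2 and 0.495 CPM in striatum, cerebellum and cortex. Slc4a5 was listed at 0 in PON2-deficient female 5 of cortex, the library with the least Ttr of that region. Clic6 was far less spread than these. It lay between 9.8 and 48.5 CPM in striatum, 17 and 65 CPM in cerebellum, and 3.09 and 17.4 CPM in cortex.

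Otx2 and Calml4 differed in what remained in the libraries with the least Ttr, in opposite directions in cerebellum and cortex. In PON2-deficient female 5 and PON2-deficient male 4 of cerebellum Otx2 kept 96.1% and 51.3% of the region median, and Calml4 10.8% and 12%. In PON2-deficient females 5 and 1 of cortex Otx2 stood at 31.9% and 26.5% of the region median, and Calml4 at 122% and 83.9%. Otx2 lay between 9.29 and 27.8 CPM in cerebellum with a median of 18.1, and its medians were 1.95 CPM in striatum and 0.704 CPM in cortex. Calml4 had medians of 0.973 CPM in striatum, 2.6 in cerebellum and 0.4 in cortex, where its lowest value was 0.113 CPM.

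All 10 genes were higher in cerebellum than in cortex in 1 edgeR quasi-likelihood fit over the 60 libraries, with p-values adjusted by the Benjamini-Hochberg method over 20387 genes and called under 0.05. In that comparison 79.6% of all genes were called and 40.1% were called higher, so that calls were common. The median log2 change of the 10 genes was 2.52. Otx2 had the largest change, with 18.9 ± 4.52 CPM in cerebellum and 1.17 ± 1 CPM in cortex (SD, n = 20 each) and a log2 change of 4.11 (SE 0.267, edgeR adjusted p = 1.92e-20). Slc4a5 followed with 14 ± 7.67 CPM in cerebellum, 1.21 ± 1.65 CPM in cortex and a log2 change of 3.78 (SE 0.492, edgeR adjusted p = 8.84e-10). Ttr had 1061 ± 693 CPM in cerebellum, 127 ± 156 CPM in cortex and a log2 change of 3.32 (SE 0.711, edgeR adjusted p = 3.5e-05). The changes of the other 7 genes lay between 2.09 for Aqp1 and 2.79 for Folr1. Without both cerebellum libraries with almost no Ttr all 10 were still called and the median was 2.64.

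All 10 genes were also lower in striatum than in cerebellum, where 39.7% of all genes were called lower and 79.8% were called in all, with a median log2 change of -1.87. Slc4a5 (log2 -2.84), Otx2 (log2 -2.78) and Kcnj13 (log2 -2.42) had the largest differences. Ttr averaged 261 ± 436 CPM in striatum and 1061 ± 693 CPM in cerebellum (SD, n = 20 each; log2 change -2.15, SE 0.675, edgeR adjusted p = 0.00351). Calml4 had the smallest difference, with a log2 change of -1.16 (SE 0.296, edgeR adjusted p = 0.000403), and Clic6 the next, with -1.28 (SE 0.189, edgeR adjusted p = 2.19e-08). Without both low cerebellum libraries the 10 calls were kept and the median was -2.03.

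Striatum and cortex were much closer. Of the 10 genes 3 were called higher in striatum and none lower, while 57% of all genes were called, 28.8% higher and 28.2% lower in striatum. Otx2 averaged 2.81 ± 2.01 CPM in striatum and 1.17 ± 1 CPM in cortex (SD, n = 20 each; log2 change 1.33, SE 0.276, edgeR adjusted p = 4.33e-05). Clic6 averaged 16.7 ± 9.09 CPM in striatum and 7.23 ± 4.18 CPM in cortex (log2 change 1.22, SE 0.199, edgeR adjusted p = 5.42e-07), and Calml4 1.26 ± 0.942 CPM in striatum and 0.629 ± 0.565 CPM in cortex (log2 change 1.07, SE 0.334, edgeR adjusted p = 0.0051). These 3 genes also had the lowest correlations with Ttr among the striatal libraries with little Ttr.

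Ttr itself was not called between striatum and cortex (log2 change 1.18, SE 0.663, edgeR adjusted p = 0.126), and its summaries pointed to opposite sides. The median was lower in striatum, at 23.5 CPM against 58.8 CPM in cortex, while the mean was higher, at 261 CPM against 127 CPM. Kl showed the same split, with medians of 5.44 and 6.08 CPM and means of 13.7 and 9.02 CPM in striatum and cortex. Without PON2-deficient male 5 of striatum the log2 change of Ttr was 0.44 and that of Aqp1 -0.09, against 0.14 with it, and the same 3 genes were called. Leaving out PON2-deficient female 4 or PON2-deficient male 2 of cortex brought the count of called genes to 5 or 6. With the deposited log2 values and weights Ttr had a log2 change of -0.37 and Kcnj13 was called lower in striatum (log2 change -1.82, limma adjusted p = 0.0146).

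The genes moved together from library to library. In cortex the Pearson correlation of log2 CPM with Ttr over 20 libraries lay between 0.64 for Calml4 and 0.96 for Kl and Folr1. All 9 relations passed a 2-sided permutation test (100000 permutations, adjusted over 36 relations, largest adjusted p = 0.00402 for Calml4). Spearman's rho lay between 0.47 and 0.97, and only that of Calml4 missed the threshold (adjusted permutation p = 0.0644). Without the 2 libraries farthest from the median of Ttr the Pearson correlations lay between 0.65 and 0.96.

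In cerebellum the correlation was taken over the 18 libraries above the gap in Ttr, since a pooled value would rest on the 2 low libraries. It lay between 0.90 for Otx2 and 0.98 for Kl and Calml4, with Spearman's rho between 0.91 and 0.98. All 9 adjusted permutation p-values were 2.25e-05, from the smallest p that the permutations can give (1e-05). Without the 2 farthest of these libraries the Pearson correlations lay between 0.87 and 0.98.

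In striatum the 2 sets of libraries differed. Among the 13 libraries with 40.6 CPM of Ttr or less, Aqp1 (r = 0.84, adjusted permutation p = 8e-04), Kcnj13 (r = 0.72), F5 (r = 0.72) and Kl (r = 0.69) passed the test by Pearson's r, and only Aqp1 and Kcnj13 also by rho. Without the 2 farthest libraries r was 0.62 for Aqp1, 0.51 for Kcnj13, 0.44 for F5 and 0.63 for Kl. Otx2 (r = -0.02), Calml4 (r = -0.11) and Clic6 (r = 0.09) showed no relation that this number of libraries could resolve. Among the 7 libraries with 323 CPM or more, 7 of 9 relations passed by Pearson's r, with r between 0.67 for Otx2 and 0.95 for Folr1, and none by rho. Without the 2 farthest libraries these correlations lay between -0.30 and 0.66, so that they rest on those libraries.

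**Figure D2:**
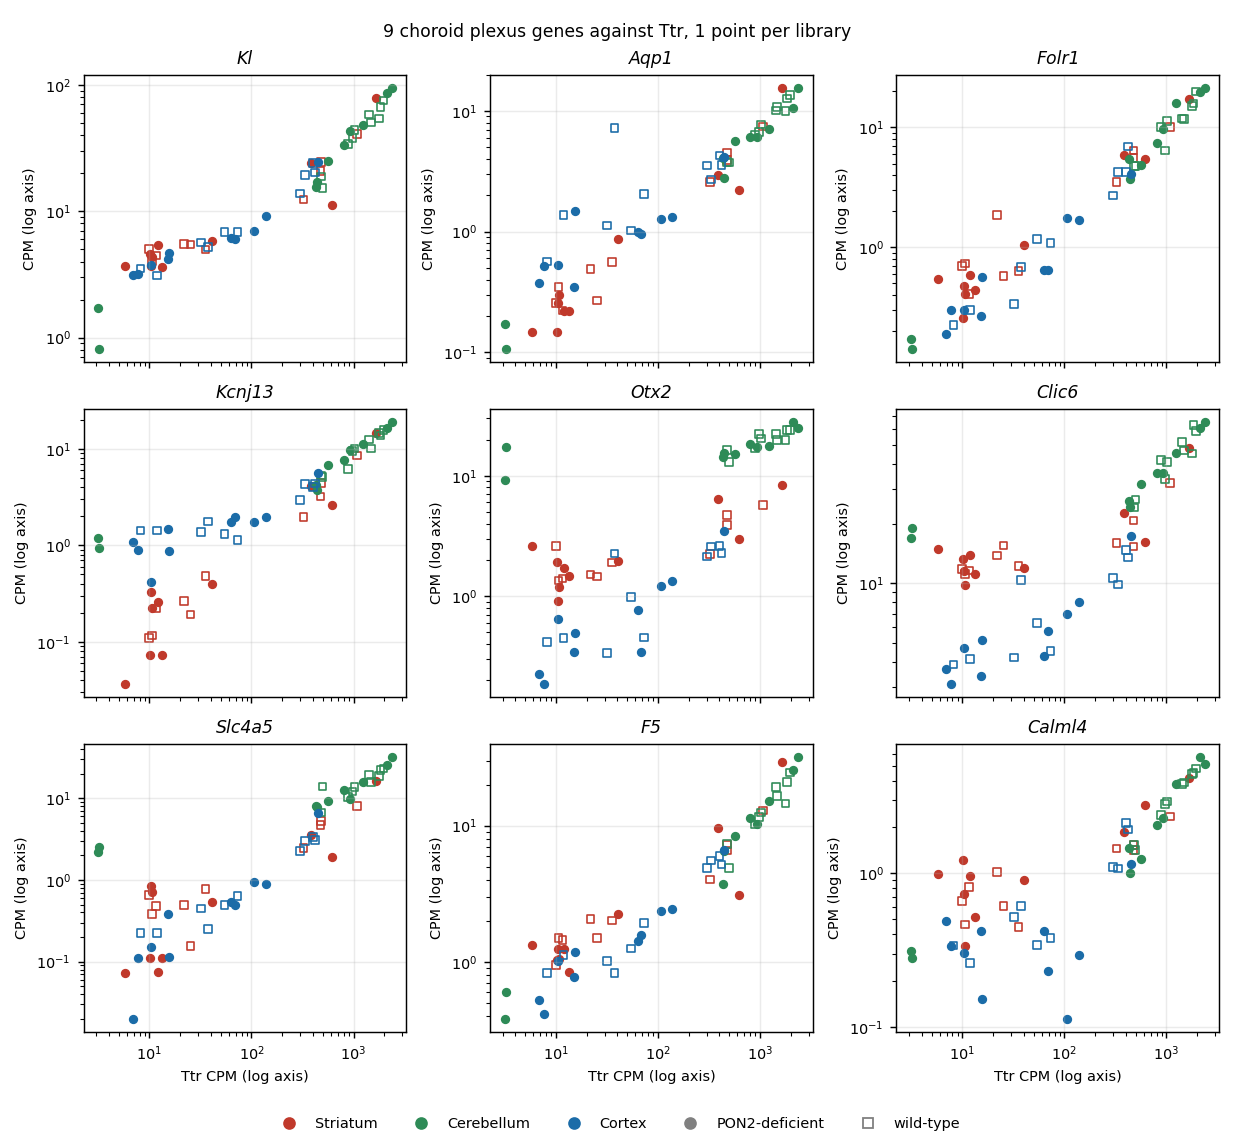
CPM of each of the other 9 genes against CPM of Ttr, 1 point per library, both axes logarithmic (colours regions, filled points PON2-deficient, open points wild-type). The cerebellum library with 3.24 CPM of Ttr still had 17.4 CPM of Otx2 and 19.1 CPM of Clic6, but 0.106 CPM of Aqp1.

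A straight line of CPM on Ttr CPM within each region separated the level at a Ttr of 0 from the amount that came with Ttr. The slopes are given side by side, and their differences between regions were not tested. The slope of Kl was 40.4 ± 2.67 CPM per 1000 CPM of Ttr in striatum, 37.7 ± 1.59 in cerebellum and 45.5 ± 1.83 in cortex (SE, n = 20 each). That of Folr1 was 9.94 ± 0.357, 9 ± 0.544 and 11.3 ± 0.913, and that of F5 14.6 ± 1.22, 11.8 ± 0.695 and 13 ± 0.491, in striatum, cerebellum and cortex. Among the transport genes the slope of Slc4a5 was 8.73 ± 0.566, 10.6 ± 0.725 and 9.87 ± 0.91, that of Kcnj13 8.29 ± 0.383, 7.19 ± 0.328 and 8.61 ± 0.609, and that of Clic6 19.8 ± 1.57, 20.7 ± 1.26 and 24.6 ± 2.5. Aqp1 had slopes of 8.25 ± 0.483, 5.95 ± 0.356 and 6.54 ± 2.17, Otx2 of 4.11 ± 0.496, 5.71 ± 0.742 and 5.73 ± 0.689, and Calml4 of 2.02 ± 0.179, 2.32 ± 0.0986 and 3.16 ± 0.417. A few rich libraries set the striatal slopes, which ranged over 31.9 to 42.2 for Kl and 10.2 to 15.6 for F5 when 1 library was left out. Without both low cerebellum libraries the slope of Kl there was 37.8 ± 1.98, that of Clic6 20.8 ± 1.56 and that of Otx2 5.89 ± 0.73 (n = 18). PON2-deficient male 5 of striatum, with 616 CPM of Ttr, had 11.2 CPM of Kl, 2.2 of Aqp1 and 3.07 of F5. Without it the striatal slopes were 42.2 ± 1.6 for Kl, 8.56 ± 0.317 for Aqp1 and 15.3 ± 0.902 for F5 (n = 19). Their r squared was 0.98, 0.98 and 0.94, against 0.93, 0.94 and 0.89 with it, while that of Folr1 was 0.98 both times.

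The level at a Ttr of 0 set the genes apart. Otx2 stood at 1.74 ± 0.247 CPM in striatum, 12.8 ± 0.933 CPM in cerebellum and 0.445 ± 0.137 CPM in cortex (SE). Clic6 stood at 11.5 ± 0.783 CPM in striatum, 17.7 ± 1.58 CPM in cerebellum and 4.09 ± 0.496 CPM in cortex. Kl stood at 3.12 ± 1.33 CPM in striatum and 3.22 ± 0.364 CPM in cortex, but at 1.05 ± 2 CPM in cerebellum. Slc4a5 stood at 2.76 ± 0.912 CPM in cerebellum and within 1 SE of 0 in striatum and cortex, at 0.115 ± 0.282 and -0.0493 ± 0.181 CPM. Kcnj13, with its overlap with Gigyf2, stood at 1.54 ± 0.413 CPM in cerebellum, 0.998 ± 0.121 CPM in cortex and -0.043 ± 0.191 CPM in striatum. Without both low cerebellum libraries Otx2 stood there at 12.6 ± 0.968 CPM, Clic6 at 17.6 ± 2.07 CPM and Kl at 1 ± 2.62 CPM.

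**Figure D3:**
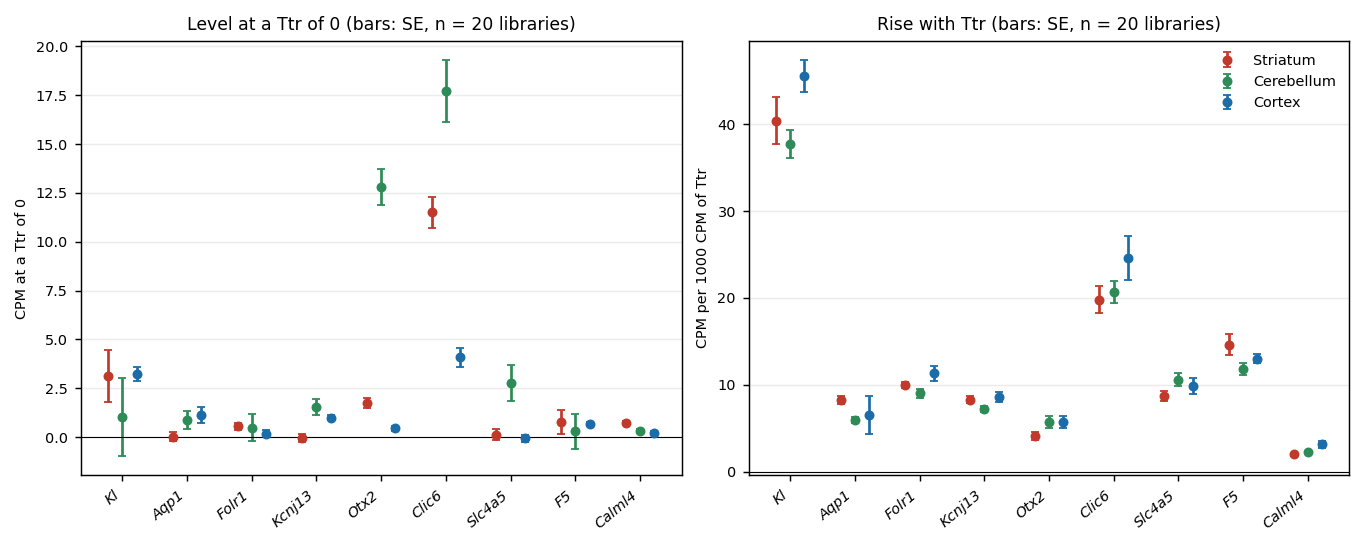
Level at a Ttr of 0 (left, CPM) and rise per 1000 CPM of Ttr (right, CPM) of the other 9 genes, from a straight line over the 20 libraries of each region (points estimates, bars SE, colours regions). Otx2 and Clic6 had the highest levels at a Ttr of 0 in cerebellum (12.8 and 17.7 CPM), and Kl had the steepest slopes, 37.7 to 45.5 CPM per 1000 CPM of Ttr.

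Measured as the mean log2 ratio to Ttr, 2 of 9 genes differed between striatum and cortex, 6 of 9 between cerebellum and cortex and 6 of 9 between striatum and cerebellum (2-sided permutation tests with 100000 resamples, adjusted over 27 ratios). The log2 ratio of Kl to Ttr was -4.36 ± 1.04 in cerebellum and -2.90 ± 1.18 in cortex (SD, n = 20 each; difference -1.46, adjusted permutation p = 0.0027). That of Otx2 was -4.47 ± 2.11 in striatum and -5.87 ± 1.26 in cortex (difference 1.40, adjusted permutation p = 0.0304), and that of Kcnj13 was -6.24 ± 0.80 in striatum and -4.87 ± 1.42 in cortex (difference -1.37, adjusted permutation p = 0.0027). Where a gene has a level at a Ttr of 0, its ratio rises as Ttr falls. These tests therefore cannot tell a different amount per unit of Ttr from a different amount of Ttr. Without both low cerebellum libraries 7 of 9 ratios differed between cerebellum and cortex and 8 of 9 between striatum and cerebellum. In the 18 cerebellum libraries that remain, a ratio varied little. Its SD was 0.16 for Kl, 0.18 for Calml4, 0.24 for Aqp1 and for Folr1 on the log2 scale, and 0.57 for Otx2, the widest.

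The cerebellum libraries with almost no Ttr, PON2-deficient female 5 and PON2-deficient male 4, show the same separation directly. Ttr stood at 3.24 and 3.15 CPM, or 0.341% and 0.332% of the median of the region. Aqp1 stood at 0.106 and 0.173 CPM (1.62% and 2.67%), Folr1 at 0.141 and 0.173 CPM (1.42% and 1.75%), Kl at 0.809 and 1.7 CPM (1.99% and 4.19%) and F5 at 0.598 and 0.381 CPM (5.22% and 3.33%). Kcnj13, Calml4 and Slc4a5 kept between 9.9% and 19% of the median. Clic6 kept 49.4% and 43.9%, at 19.1 and 17 CPM, and Otx2 96.1% and 51.3%, at 17.4 and 9.29 CPM.

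In cortex, wild-type male 2 lay off the line for some genes. With 37.6 CPM of Ttr it had 7.19 CPM of Aqp1, where the line gave 1.38, 2.26 CPM of Otx2 (0.66 on the line) and 10.4 CPM of Clic6 (5.01 on the line). Folr1, at 0.683 CPM, and Kl, at 5.21 CPM, were close to the line (0.602 and 4.93 CPM). Without this library the slope of Aqp1 in cortex was 7.75 ± 0.644 CPM per 1000 CPM of Ttr with an r squared of 0.89, against 6.54 ± 2.17 and 0.33 with it.

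The genotype comparisons in striatum and cerebellum gave no edgeR call for any of the 10 genes. In striatum 0.0105% of all genes were called over both sexes (2 of 18962), and in cerebellum 0.0321% (6 of 18710), so that 0 of 10 is close to the background. At an unadjusted p under 0.05 there were 937 genes in striatum and 2081 in cerebellum. DESeq2 called 7 genes in striatum and 244 in cerebellum, with none of the 10 genes among them.

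In striatum the changes lay on both sides of 0. Ttr averaged 276 ± 526 CPM in PON2-deficient and 246 ± 351 CPM in wild-type striatum (SD, n = 10 each), a log2 change of 0.02 (SE 1.1, edgeR adjusted p = 1). Slc4a5 had a log2 change of -0.46 (SE 0.815) and Calml4 of 0.40 (SE 0.392), both with an edgeR adjusted p of 0.995. With such spread a single library moved Ttr widely: its log2 change was -1.46 without PON2-deficient male 5 and -0.97 without PON2-deficient female 5. The deposited values and weights gave -1.45.

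In cerebellum all 10 estimates were below 0. Ttr averaged 890 ± 810 CPM in PON2-deficient and 1233 ± 540 CPM in wild-type cerebellum (SD, n = 10 each; log2 change -0.47, SE 0.671, edgeR adjusted p = 0.852). Aqp1 averaged 5.82 ± 4.69 CPM in PON2-deficient and 8.56 ± 3.47 CPM in wild-type cerebellum (log2 change -0.55, SE 0.47, edgeR adjusted p = 0.728), and Calml4 2.32 ± 1.92 CPM and 3.25 ± 1.22 CPM (log2 change -0.50, SE 0.41, edgeR adjusted p = 0.715). Without both low libraries 9 estimates were below 0, Ttr had a log2 change of -0.15, Aqp1 of -0.24 and Calml4 of -0.22, and the median of the 10 was -0.07.

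In cortex, the comparison in view when the genes were chosen, all 10 estimates were lower in PON2-deficient libraries. With edgeR no member passed the threshold and 0.0316% of all genes were called (6 of 18972), while DESeq2 called Aqp1 and 238 genes in all. Nothing is read from these counts here. Ttr averaged 87.8 ± 134 CPM in PON2-deficient and 167 ± 173 CPM in wild-type cortex (SD, n = 10 each; log2 change -1.35, SE 0.738). Aqp1 averaged 1.2 ± 1.12 CPM in PON2-deficient and 2.73 ± 2 CPM in wild-type cortex (log2 change -1.34, SE 0.395, and -1.11, SE 0.38, without wild-type male 2). Folr1 had a log2 change of -1.23 (SE 0.612), Calml4 of -1.16 (SE 0.435) and Slc4a5 of -0.92 (SE 0.705). The smallest changes were those of Kcnj13 (log2 -0.55, SE 0.344) and Clic6 (log2 -0.46, SE 0.297), and the ranges of the genotypes overlapped for each gene.

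In males 8 of the 10 estimates were lower and 2 higher in PON2-deficient cortex with a median of -0.17, and Ttr had a log2 change of -0.24 (SE 1.01). In females all 10 were lower with a median log2 change of -1.48, led by Ttr (log2 -2.46, SE 1.09) and Slc4a5 (log2 -2.19, SE 1.07). No member was called within a sex in striatum or cerebellum, nor in cortex, where the values are a description without a test. Of all genes 0.00527% were called in male striatum, 0.016% in male cerebellum and 0.148% in male cortex, and 0.00527%, 0.00534% and 0.00527% in the same regions of females. Among cortex females Ttr ranged from 6.88 to 107 CPM in PON2-deficient libraries (median 10.4) and from 8.19 to 402 CPM in wild-type libraries (median 54.2). The median of the 10 estimates was -0.62 in males and 0.52 in females in striatum, and -0.35 in males and -0.31 in females in cerebellum. Without PON2-deficient male 5 the median in male striatum was -1.49, and without both low libraries the medians in cerebellum were -0.08 in males and -0.07 in females. The difference between the male and the female effect was called for 0% of all genes in each region and for none of the 10 (edgeR, with 818 genes in striatum, 885 in cerebellum and 1814 in cortex at an unadjusted p under 0.05). Whether the genotype effect differs between regions was not tested.

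**Figure D4:**
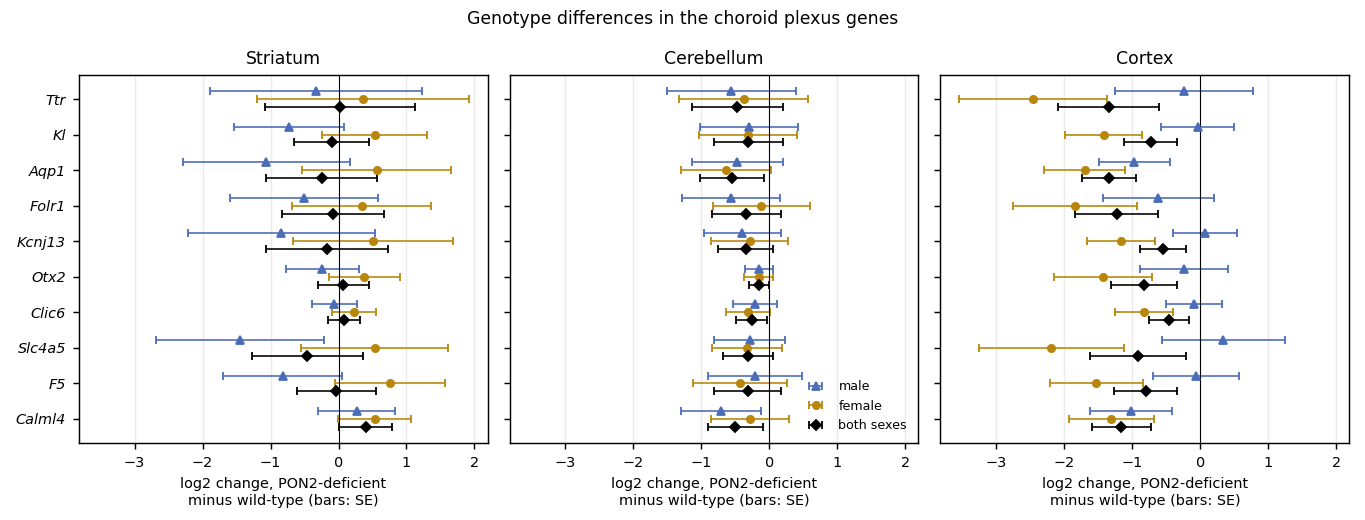
Log2 change of each gene, PON2-deficient minus wild-type, in striatum, cerebellum and cortex (points edgeR estimates, bars SE; triangles male, circles female, diamonds both sexes). The estimates for both sexes ran from -1.35 to -0.46 in cortex and lay around 0 in striatum, where the SE of Ttr was 1.1.

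Males and females did not differ by a call either, in any of the 10 genes, with 0.105% of all genes called in striatum, 0.118% in cerebellum and 0.0896% in cortex. In striatum all 10 estimates were lower in males than in females, with a median log2 change of -1.33, and of -1.79 without PON2-deficient male 5. Clic6 had a log2 change of -0.64 (SE 0.233, edgeR adjusted p = 0.492), F5 of -1.53 (SE 0.604, edgeR adjusted p = 0.554) and Kl of -1.40 (SE 0.563, edgeR adjusted p = 0.564). In cortex all 10 were higher in males, with a median of 0.67 and the smallest p for Aqp1 (log2 change 1.18, SE 0.395, edgeR adjusted p = 0.301). In cerebellum 2 were higher and 8 lower, with a median of -0.12. Other markers were set beside them in the same comparison of the sexes in striatum, and signs of estimates within a list are not a test. Of 5 genes of red blood cells 4 were called higher in males (median log2 change 0.82), while 12 of 13 thalamic and 14 of 16 meningeal estimates were lower in males (medians -0.55 and -0.12) and 8 of 8 cortex identity estimates higher (median 0.39), with none called. In cortex all 16 meningeal estimates were higher in males (median 0.23, none called), as were all 5 of red blood cells (median 0.78, 1 called). Their part in the values of the 10 genes was not tested.

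Other genes of the choroid plexus were taken as a further list of 30, all in the table. Between cerebellum and cortex 27 of the 30 were called higher and 2 lower (median log2 change 1.22), beside 40.1% of all genes called higher and 39.5% lower. Between striatum and cerebellum 2 were called higher and 24 lower (median -1.25), beside 40.2% and 39.7% of all genes, and between striatum and cortex 8 were called higher and 5 lower (median 0.30), beside 28.8% and 28.2% of all genes. No gene of the list was called between genotypes. In cortex 27 of 29 tested genes had a lower estimate in PON2-deficient libraries. Their median log2 change was -0.17, beside a median of -0.00056 over all genes. Choroid plexus markers in this comparison were in view when the genes were chosen, so this is a description without a test and no separate support.

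The 6 most abundant genes of the further list kept a level in every library. Enpp2, which encodes autotaxin and is also made by oligodendrocytes, ranged over 180 to 1131 CPM in striatum, 108 to 1462 CPM in cerebellum and 171 to 426 CPM in cortex. Trpm3, a cation channel gene, had at least 33.3 CPM in striatum, 198 CPM in cerebellum and 45.1 CPM in cortex. Igf2, a growth factor gene also expressed in meninges and vessels, had at least 22.9, 61.7 and 48.1 CPM in striatum, cerebellum and cortex. Slc4a2, Cab39l and Ace, the other 3, averaged 48.5, 30.6 and 29.4 CPM over the 60 libraries.

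The likeness of every gene to the 10 was taken as the Pearson correlation of its deviations from the means of the 12 groups with the mean deviation of the 10 genes, over 60 libraries and for the 17650 genes that averaged 0.5 CPM or more. This is a description without a test, and the libraries share depth and composition. Of the 10 themselves, which are part of that mean, Folr1 and Ttr had the highest value (0.98 each) and Otx2 the lowest (0.77, rank 47 among all genes). Outside them the most alike were 1500015O10Rik (0.97), Kcne2, Mfrp and Prr32 (0.96 each), Sostdc1 and 2900040C04Rik (0.95 each), Cldn2 (0.94), and Steap1, Oca2 and Slc2a12 (0.92 each). Of these 6 were on the further list, among them Kcne2, a potassium channel subunit, Cldn2, a tight junction protein of leaky epithelia, and Sostdc1, a secreted antagonist of BMP and WNT signals. Mfrp ranged from 0.23 to 35.8 CPM in striatum, 0.0352 to 32.9 CPM in cerebellum and 0.298 to 10.7 CPM in cortex.

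Markers of neighbouring tissue had lower values. The median likeness was 0.84 for the further choroid plexus genes (28 of 29 above 0.5) and 0.25 for genes of ependyma and motile cilia (4 of 17 above 0.5: Cfap126, Rsph1, Pifo and Spag6l). It was -0.07 for meningeal fibroblasts, -0.15 for vessel cells, -0.07 for thalamus, 0.09 for hypothalamus, -0.08 for red blood cells and -0.06 for hippocampus. Over all genes it was -0.01, with 162 of 17650 above 0.5. Without the 4 libraries that stood apart the median was 0.83 for the further choroid plexus genes and 0.08 for ependymal genes (1 of 17 above 0.5), and 8 of the 10 most alike genes were the same. In the hippocampus list Dsp, the desmoplakin gene, stood alone at 0.68, singled out after its values were seen.

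**Figure D5:**
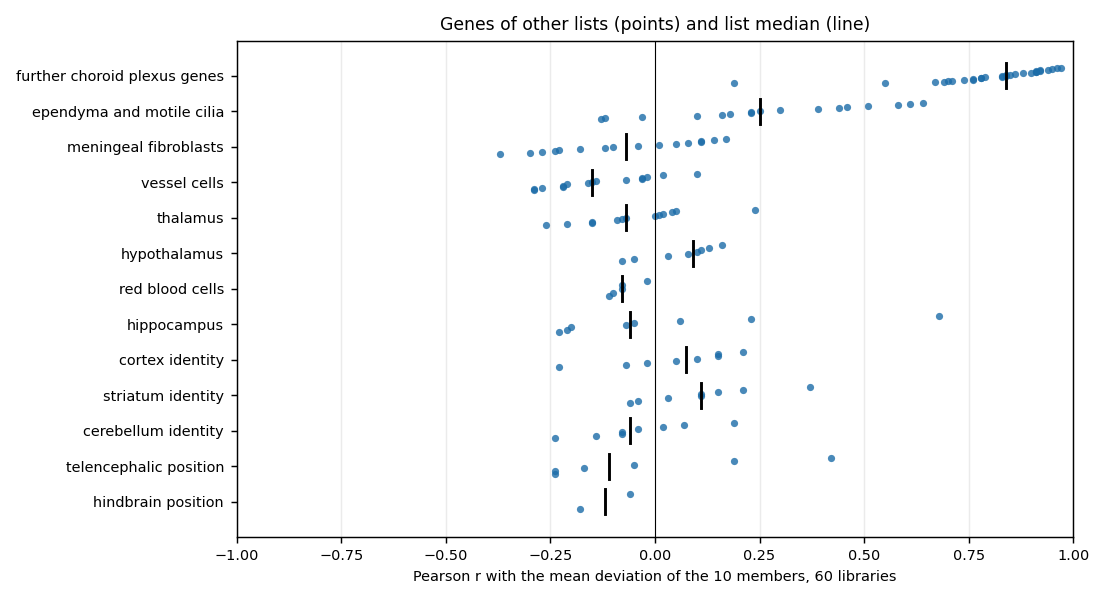
Pearson correlation over 60 libraries of each listed gene with the mean deviation of the 10 choroid plexus genes (points genes that averaged 0.5 CPM or more, lines list medians). The further choroid plexus genes had a median of 0.84, ependymal genes of 0.25 and every other list lay between -0.15 and 0.11.

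The summed level of ependymal genes, which mark the ciliated lining of the ventricles, was set beside them. It was 59.3 to 119 CPM in PON2-deficient and 58.9 to 91.5 CPM in wild-type striatum, 82.5 to 116 and 86 to 122 CPM in cerebellum, and 44.5 to 58.6 and 49.6 to 70.8 CPM in cortex, each time PON2-deficient before wild-type. The estimates were higher in PON2-deficient libraries for 18 of 18 genes in striatum (median log2 change 0.35) and lower for 15 of 18 in cerebellum (median -0.19) and 16 of 17 in cortex (median -0.41), and no gene was called. Without both low cerebellum libraries 14 of 18 were lower there (median -0.09), and without PON2-deficient male 5 of striatum 17 of 18 were higher (median 0.20). Meningeal sums were 573 to 983 CPM in PON2-deficient and 421 to 1040 CPM in wild-type cortex, vessel sums 383 to 512 and 393 to 466 CPM, and thalamic sums 191 to 249 and 208 to 341 CPM. Their part in the cortex values of the 10 genes was not tested.

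Genes that mark position along the brain were read as a further check on the surrounding tissue. Lhx2, which marks the forebrain, had medians of 31.2 CPM in striatum and 69.2 CPM in cortex, and at most 4.4 CPM in cerebellum. En1 and Meis1 had medians of 6.31 and 47.5 CPM in cerebellum, and En1 at most 0.192 CPM in striatum and 0.0719 CPM in cortex. Meis1 also had medians of 14.2 CPM in striatum and 5.25 CPM in cortex. Of 7 listed hindbrain genes 3 were in the table. In cerebellum they summed to 49.6 to 58.6 CPM in PON2-deficient and 50.4 to 58.5 CPM in wild-type libraries, and the genotypes overlapped. Most of that sum was Meis1, at 43.3 to 51.6 CPM in cerebellum.

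Libraries rich in Ttr were compared between regions by their sex, genotype and number. Of the 7 libraries with the most Ttr in each region, 1 had the same sex, genotype and number in striatum and cortex, 1 in cerebellum and cortex and 3 in striatum and cerebellum. How many would be shared by chance was not worked out, so nothing is read from these counts. Whether equal numbers mark 1 mouse is not given in the sources used here.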

How the data were processed

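The authors' deposited table holds expected counts per gene, estimates that are not whole numbers, for 20423 genes in 60 libraries. Per the submitters' processing notes Salmon, edgeR and limma were used. Which versions, genome build and annotation they used is not given in the sources used here. A second deposited table has log2 CPM made with voom. Recomputed from the counts with an offset of 0.5 and TMM-scaled library sizes, these log2 values deviated by at most 5.33e-14. The deposited voom weights are a score of precision that the authors made per gene and library. Symbols and positions come from GENCODE M21 (GRCm38), in which 20403 IDs (99.9%) matched, and promoter windows from RefSeq.

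Expected counts were rounded and tested with edgeR 4.0.16 in R 4.3.3 (TMM, filterByExpr, quasi-likelihood F tests, 2-sided, Benjamini-Hochberg adjustment, threshold 0.05), with 4 group means (sex by genotype) in each region and all 12 for region pairs. Tests were tried on simulated data. Alternatives were RLE size factors, no filter, the replicate number as a block, DESeq2 1.42.0, limma 3.58.1 with the deposited values or quality weights, 1 fit over all libraries and each library left out. CPM values use TMM-scaled sizes, and correlations and ratios log2 CPM with a prior count of 2. Their permutations ran in numpy 2.4.6.

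Members and lists were chosen with earlier results of these data known. Chosen after the values were seen were the straight line on Ttr, the sets of libraries split by a gap in Ttr above 2 on the log2 scale, which raised the planned 27 relations to 36, and the values without libraries that stood apart. Named were the 10 genes and Pon2, the 6 most abundant further choroid plexus genes, up to 3 genes per other list called between genotypes (none was called), the 10 genes most like the members and position genes, of which 1 is not reported here. Olfactory genes, Dsp and the 4 ependymal genes were named after their values were seen.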

Additional observations from a re-analysis of the deposited data

Results flagged for a closer look

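In each group of 5 libraries the highest and lowest library were compared with the others by Dixon's ratio, with a critical value of 0.71. Of 120 groups of gene, region, sex and genotype 7 had a library past it, near the 1 in 20 that chance alone gives. These 7 values came from 4 libraries, all PON2-deficient, and the genes move together within a library. In cerebellum, PON2-deficient female 5 had 3.24 CPM of Ttr, where the other 4 had 433 to 2117 CPM, 0.106 CPM of Aqp1 (others 4.11 to 10.6 CPM) and 0.141 CPM of Folr1 (others 5.42 to 19.9 CPM). PON2-deficient male 4 of cerebellum had 3.15 CPM of Ttr, where the other 4 had 440 to 2370 CPM. In cortex, PON2-deficient female 4 had 107 CPM of Ttr (others 6.88 to 15.1 CPM) and 1.77 CPM of Folr1 (others 0.187 to 0.302 CPM), and PON2-deficient male 2 had 4.16 CPM of Aqp1 (others 0.958 to 1.48 CPM).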

How the results depend on the processing

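Counts of called genes among the 10 kept within 1.5 times their value under RLE size factors, no filter, the deposited values and weights, quality weights and the replicate block, in every comparison each was run on. DESeq2 called 1 of the 10 between genotypes in cortex, Aqp1, and 238 genes in all (1.25%), against 0 and 6 (0.0316%) with edgeR. That comparison was in view when the genes were chosen, so nothing is read from these counts. Calls between striatum and cortex ranged over 3 to 6 with 1 library left out (5 when female 4 and 6 when male 2 of PON2-deficient cortex was the one), and differing ratios over 1 to 3. Correlated genes in striatum numbered 4 in the 13 libraries with little Ttr. Signs changed mainly in striatum. Between genotypes the deposited values and the quality weights gave -0.07 and -0.05 for Calml4, -0.09 and -0.08 for Clic6, -0.19 and -0.18 for Otx2 and -1.45 and -1.44 for Ttr. Between striatum and cortex the deposited values gave -1.02 for Aqp1 and -0.37 for Ttr. Kl in cerebellum was 0.00 between genotypes without both libraries that lacked Ttr. Leaving out 1 library moved the striatal genotype change over -1.29 to 0.21 for Aqp1, -0.18 to 0.23 for Clic6, -0.72 to 0.33 for F5, -0.81 to 0.29 for Folr1, -1.08 to 0.38 for Kcnj13, -0.75 to 0.25 for Kl, -0.18 to 0.26 for Otx2 and -1.46 to 0.65 for Ttr, and the striatum to cortex change of Aqp1 over -0.38 to 0.29. The cause of these changes was not tested.

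With the replicate block the genotype change of Ttr in striatum was -0.88 and the striatum to cortex change of Aqp1 -0.26, and no count of called members changed. Over all genes the block moved the calls between genotypes in cortex to 30 from 6, and those between sexes in striatum to 8 from 20. Same-numbered libraries of the 2 genotypes correlated by a median of 0.04 to 0.06. The value was over 0.1 in 2 of 10 pairs in striatum, 1 in cerebellum and none in cortex, with a highest of 0.41 in striatum. Whether equal numbers mark a shared origin cannot be told from these correlations. Few counts in the poorest libraries limit the precision of Slc4a5 and Kcnj13.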

Other observations

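Wild-type male 2 of cortex, the library that lay off the line of Aqp1 and Otx2 on Ttr, also held genes of the olfactory epithelium, singled out after the values were seen. Omp, the olfactory marker protein of mature olfactory neurons, stood at 69.6 CPM, where the 19 other cortex libraries ranged from 0.115 to 3.66 CPM. Stoml3 stood at 40.3 CPM (others 0.0792 to 1.08 CPM), Cyp2a5 at 30.9 CPM (0 to 0.537 CPM), Gfy at 24.8 CPM (0.188 to 0.848 CPM) and S100a5 at 9.31 CPM (0 to 1.53 CPM). Cnga2, a subunit of the olfactory transduction channel, stood at 19 CPM (others 0.22 to 1.1 CPM). Whether these genes bear on its Aqp1, Otx2 and Clic6 values was not tested.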
